A study of Sorghum bicolor with 63 samples.

Results

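Of 35567 sorghum genes measured in leaf, 116 had more RNA 3 h after nitrate was removed than at 0 h and at 24 h, called a pulse here. No leaf was sampled between 3 h and 24 h, so the length of the pulse is unknown. The genes were chosen on the leaf values themselves. The mean of log2(TPM + 1) at 3 h exceeded the means at 0 h and at 24 h by more than 2, and every 3 h library lay above every library of 0 h and 24 h. The 3 h mean was at least 5 TPM and the mean over the primary root libraries at least 1 TPM, where TPM is a level of transcripts corrected for gene length and scaled to the same sum in each library. A further 23 genes met all leaf criteria and fell under 1 TPM in primary root. The leaf levels at 0, 3 and 24 h are therefore given as a description, and nothing is read from limma calls between them. The other leaf times were not used in the choice, and the root libraries entered it only through the primary root mean.

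The plants were Sorghum bicolor BTx623, the inbred line of the reference genome, grown to 21 days after germination under 16 h of light and 8 h of dark. Leaf, primary root and lateral root were each taken in 7 groups of 3 libraries, 63 libraries in all. The groups were 0.5, 3 and 24 h in solution without nitrate (ND), a 24.5 h and a 48 h group to which nitrate had been returned (NR), at 24.5 h for 0.5 h, a 48 h group labelled as the recovery control (NRC), and nitrate-sufficient plants at 0 h (NN). The labels describe each sample as a pool of 5 plants and a biological replicate, whereas the methods give another pool size, and their protocol puts the final harvest 48 h after nitrate was restored, later than the methods do. The treatment of the NRC plants is not given in the sources used here. No group was kept on nitrate and sampled at 3 h, so the removal of nitrate and the time of day cannot be told apart at that time. In bulk tissue, fewer cells of a type and less RNA per cell cannot be told apart either.

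Some libraries went against their labels or stood apart. In leaf, the library labelled 48 h NRC replicate 1 correlated with the libraries of its own group at no more than 0.970 across genes on the log2 scale, and with 3 h replicate 2 at 0.979. Its summed TPM of 5 chlorophyll-binding protein genes, which define green leaf, was 7871, against 15115 to 30358 in the other leaf libraries. Leaf 24 h replicates 1 and 2, of a group used in the choice, correlated with each other at 0.963. A correlation this low within a group was therefore not particular to NRC replicate 1. In lateral root, the library labelled 0 h replicate 1 had a leaf marker sum of 17235 TPM, against 11.3 to 390.5 TPM in the other lateral root libraries, and its correlation with a leaf library was 0.994. Results that rest on leaf NRC replicate 1 or on the library labelled lateral root 0 h replicate 1 are given with and without them. In primary root, the library labelled 24.5 h replicate 3 held 30736 genes at 1 TPM or more, against 20898 to 21576 in the others of its tissue, and its leaf marker sum was 1432 TPM. The number of reads behind a TPM value is unknown, so the precision of a value is judged by how far the replicates of a group lie apart.

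Plants anticipate the day with a circadian clock, a loop of genes whose RNAs peak at set hours and repress one another. In Arabidopsis, APRR1 (also called TOC1) is a pseudo-response regulator that represses the morning genes of the loop. FKF1 is a blue-light receptor joined to an F-box, which marks flowering repressors for destruction, and it acts with GIGANTEA. Nitrate is at the same time a nutrient and a signal: its supply changes the RNA of transporters, assimilation enzymes and regulators within minutes to hours.

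The study's tables were read here in shortened form. The descriptions found in them cover 348 sorghum genes, and 5 of the 116 are among them. They are FKF1 (SORBI_3005G145300), APRR1 (SORBI_3004G216700), PIFI (SORBI_3001G179100), a dnaJ C76 co-chaperone (SORBI_3006G265400) and a hydroperoxide lyase described as probably inactive (SORBI_3004G007500). All 5 descriptions are projected from Arabidopsis. The other members are known here by identifier alone, and none of the 116 is a node of the study's nitrogen network. Of 15 lists of pathways matched on the descriptions, the list of heat shock proteins and chaperones held 1 member among 7 described genes, and the other lists held 0. The clock list is among these because its search words did not match the descriptions of FKF1 and APRR1. A list could reach only genes with a description read here, so the lists say nothing of the other members.

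FKF1 RNA was low at 0 h and at 24 h. Leaf libraries held 0.789, 2.16 and 1.91 TPM at 0 h, 62.7, 76.8 and 83.9 TPM at 3 h, and 3.36, 2.98 and 2.23 TPM at 24 h. At 0.5 h the libraries held 1.84, 9.40 and 9.19 TPM, so replicates 2 and 3 already stood above every 0 h and 24 h library and replicate 1 did not. In the NRC group, replicate 1 held 93.8 TPM, more than any 3 h library, and its fellow replicates held at most 3.99 TPM.

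APRR1 had the same shape at a lower level. It was at 1.42, 1.56 and 1.01 TPM at 0 h, at 8.45, 7.99 and 9.68 TPM at 3 h, and at 2.20, 0.583 and 1.55 TPM at 24 h. NRC replicate 1 again stood apart, with 6.69 TPM against 0.448 and 0.789 TPM in its fellow replicates. GIGANTEA (SORBI_3003G040900), the described gene of the clock list, is not a member because its rise was smaller: its leaf levels were 139.9, 179.6 and 145 TPM at 0 h, 359.8, 447 and 447 TPM at 3 h, and 167, 202 and 168 TPM at 24 h.

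PIFI is a chloroplast protein that in Arabidopsis takes part in electron flow to plastoquinone after light is turned off. Its leaf RNA was abundant, at 27.1, 22.9 and 20.6 TPM at 0 h, 717, 627 and 699 TPM at 3 h, and 32.2, 21.9 and 28.1 TPM at 24 h. The 3 h libraries of PIFI lay within a narrow range and far from both others. The dnaJ C76 gene (SORBI_3006G265400), which encodes a J-domain protein of the kind that hands client proteins to Hsp70, stood at 23.1, 18.1 and 18.8 TPM at 3 h. In every 0 h and 24 h leaf library it was at or under 1.03 TPM. Hydroperoxide lyases split oxidized fatty acids into short aldehydes, and SORBI_3004G007500 held 178, 227 and 190.3 TPM at 3 h, between 26.2 and 32.5 TPM at 0 h, and between 10.4 and 17.7 TPM at 24 h.

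**Figure D1:**
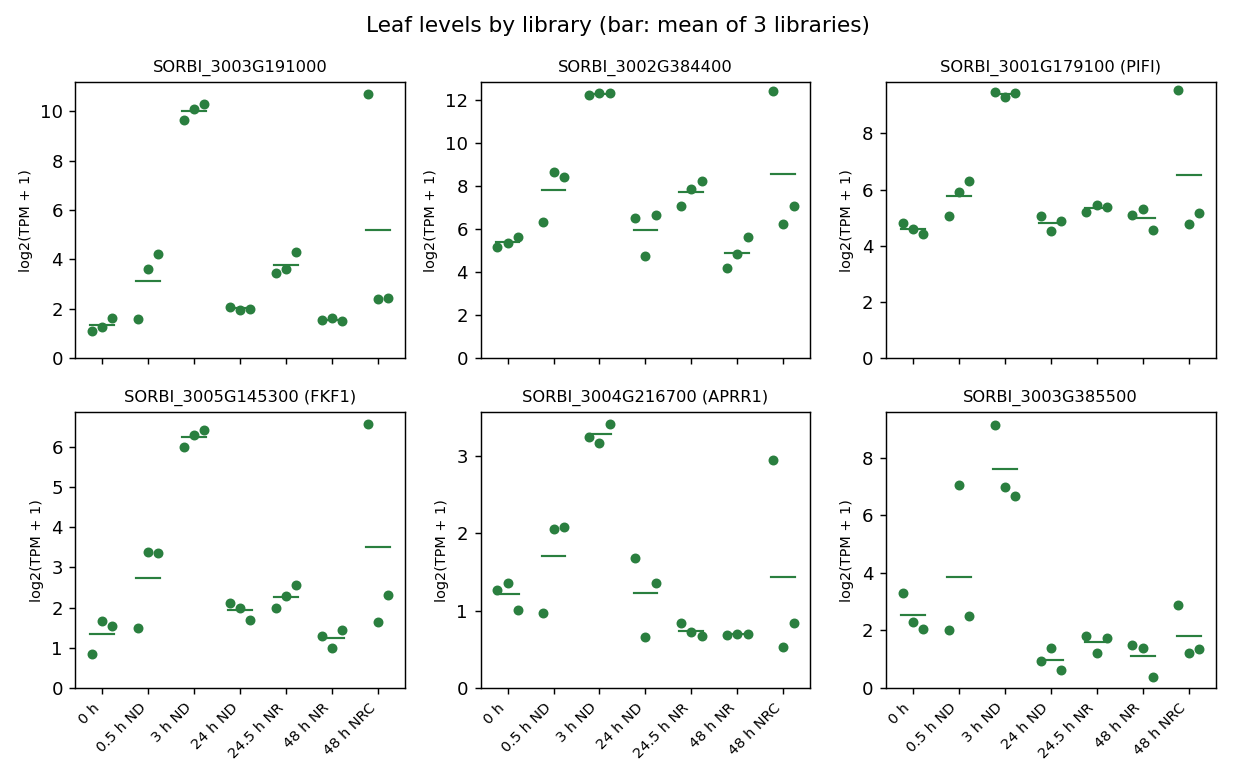
Leaf levels of 6 of the genes in each library, as log2(TPM + 1) on the vertical axis, by group on the horizontal axis; points are libraries and bars are group means. In 5 of the 6 panels the first NRC point lies with the 3 h libraries or near them, and for SORBI_3003G385500 the 3 h libraries and the 0.5 h libraries spread widely.

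The largest rise belonged to SORBI_3003G191000, which has no description among those read here. It was at 1.14, 1.39 and 2.11 TPM at 0 h, 802, 1098 and 1265 TPM at 3 h, and 3.24, 2.90 and 2.93 TPM at 24 h. The smaller of its rises, that over 24 h, was 8.01 on the log2(TPM + 1) scale. The highest level belonged to SORBI_3002G384400, with 4715, 5092 and 5149 TPM at 3 h, against 34.8 to 48.6 TPM at 0 h and 25.7 to 97.6 TPM at 24 h. Both genes were also high in NRC replicate 1, at 1663 TPM for SORBI_3003G191000 and 5410 TPM for SORBI_3002G384400.

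The 116 genes covered a wide range of levels around the same shape. Their 3 h mean had a median of 39.8 TPM and ran between 5.37 and 4986 TPM, and 37 genes reached 100 TPM. The median of their means was 4.37 TPM at 0 h and 4.34 TPM at 24 h. The smaller of the rises had a median of 2.40 on the log2 scale, exceeded 3 in 29 genes and exceeded 4 in 12. At the threshold, SORBI_3003G182400 entered with a smaller rise of 2.01, and SORBI_3002G208000, with 2.00 after rounding (below 2 unrounded), stayed out. The first of these held 22.0, 30.7 and 24.0 TPM at 3 h, and SORBI_3002G208000 held 59.7, 77.2 and 59.7 TPM. For 113 of the 116 genes limma called the 3 h level higher than at 0 h (background 5.54% of the leaf genes tested), and for all 116 higher than at 24 h (background 8.01%). These counts follow from the choice of the genes on the same libraries. They are no test of the pulse, and nothing is read from their distance to the background. The genes lay on all 10 chromosomes, with 24 of them on chromosome 1. That chromosome carries 18.2% of the leaf genes tested and 20.7% of the 116.

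**Figure D2:**
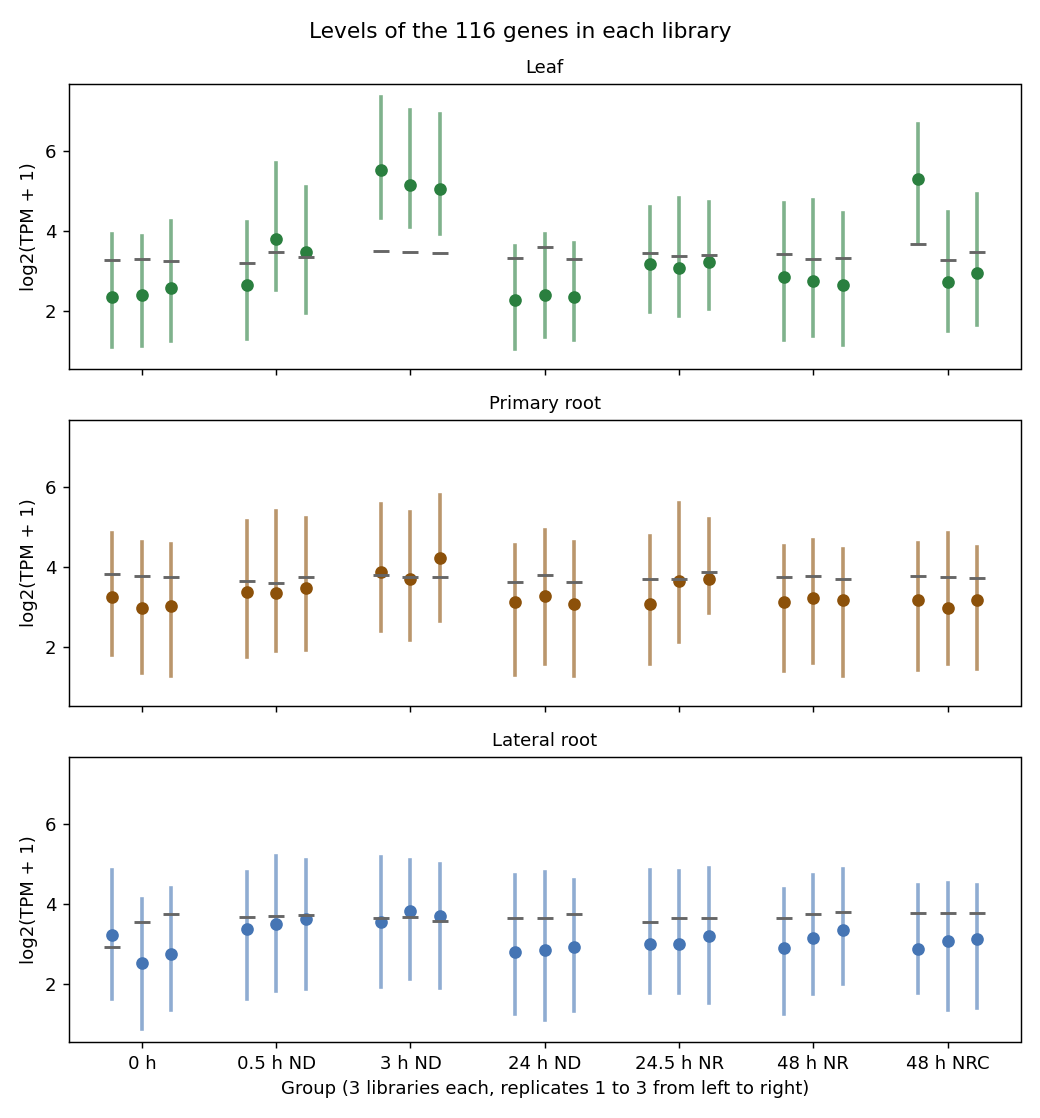
Levels of the 116 genes in each of the 63 libraries, as log2(TPM + 1) on the vertical axis, by group on the horizontal axis and by tissue in 3 panels; a dot is the median of the 116 genes, a coloured bar spans their quartiles, and a grey dash is the median of all genes tested. In leaf the 3 h medians of 5.52, 5.13 and 5.05 and the first NRC library at 5.30 stand above the grey dashes, while the medians at 0 h and 24 h lie below them.

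The 3 h libraries held most of these genes at nearly equal levels. The ratio of the highest to the lowest 3 h library had a median of 1.30 and was under 1.5 for 76 genes. A set of 12 genes had a ratio over 3, and for all 12 the highest 3 h library was replicate 1. For 11 of the 12 the highest 0.5 h library was replicate 2. SORBI_3010G160033 shows the pattern, with 190.4, 21.0 and 13.8 TPM at 3 h and 0.149, 28.2 and 0.24 TPM at 0.5 h. Its neighbours by identifier, SORBI_3010G160000 (122, 13.7 and 7.79 TPM at 3 h) and SORBI_3010G159900 (73.8, 7.93 and 4.76 TPM), ran in parallel, and whether reads were shared among them was not tested.

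SORBI_3003G385500 was uneven in the same libraries, with 563, 125 and 99.8 TPM at 3 h and 3.00, 131 and 4.63 TPM at 0.5 h. It was also a strong root gene, at 697, 761 and 356 TPM in primary root at 3 h. The leaf library 3 h replicate 1 had a summed level of 19.2 TPM for 4 nitrate uptake genes of the NRT2 and NAR2 families, which work mainly in roots, against 2.73 and 4.11 TPM in its fellow replicates and 141 to 171 TPM in primary root at 3 h. Leaf 0.5 h replicate 2, the other library in which the 12 genes were high, had 1.07 TPM. The leaf libraries of 24.5 h held 16.1, 15.2 and 9.13 TPM, and NRC replicate 1 held 26.1 TPM. A sum near 19.2 TPM was therefore not particular to 3 h replicate 1. The part of root RNA in the uneven levels was not tested.

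Across the whole leaf series, the pulse can be set beside the groups the choice did not use. Every count and distance of this kind reuses the libraries of 0, 3 and 24 h that chose the genes, so the counts are given with their background as a description and nothing is read from them. The 3 h libraries lay above every other leaf library for 30 of the 116 genes (background 2.05%), and above every other leaf library but NRC replicate 1 for 91 genes (background 6.38%). The distance of a library from the 0 h and 24 h mean (set to 0) towards the 3 h mean (set to 1) was taken for each gene. Its median over the 116 genes at 0.5 h was 0.07, 0.41 and 0.29 for replicates 1, 2 and 3. At 24.5 h it was 0.17, 0.23 and 0.24, and at 48 h NR 0.07, 0.09 and 0.05. These medians lay further apart among the 0.5 h libraries than among those of 24.5 h or of 48 h NR. All 0.5 h libraries lay above every 0 h and 24 h library for 12 genes (background 1.56%), all 24.5 h libraries for 41 genes (background 5.47%), and all 48 h NR libraries for 28 genes (background 6.63%).

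The same distance in the NRC group was 1.01, 0.08 and 0.13. NRC replicate 1 lay above every 0 h and 24 h leaf library for 98 of the 116 genes (background 35.7%), and for 67 of them it also reached the lowest 3 h library (background 33.8%). NRC replicate 2 reached the lowest 3 h library for 4 genes (background 9.83%), and NRC replicate 3 for 3 genes (background 18.3%). In the uneven set, NRC replicate 1 exceeded every 0 h and 24 h library for 5 of the 12 genes. These counts, too, share the libraries of the choice and are a description.

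**Figure D3:**
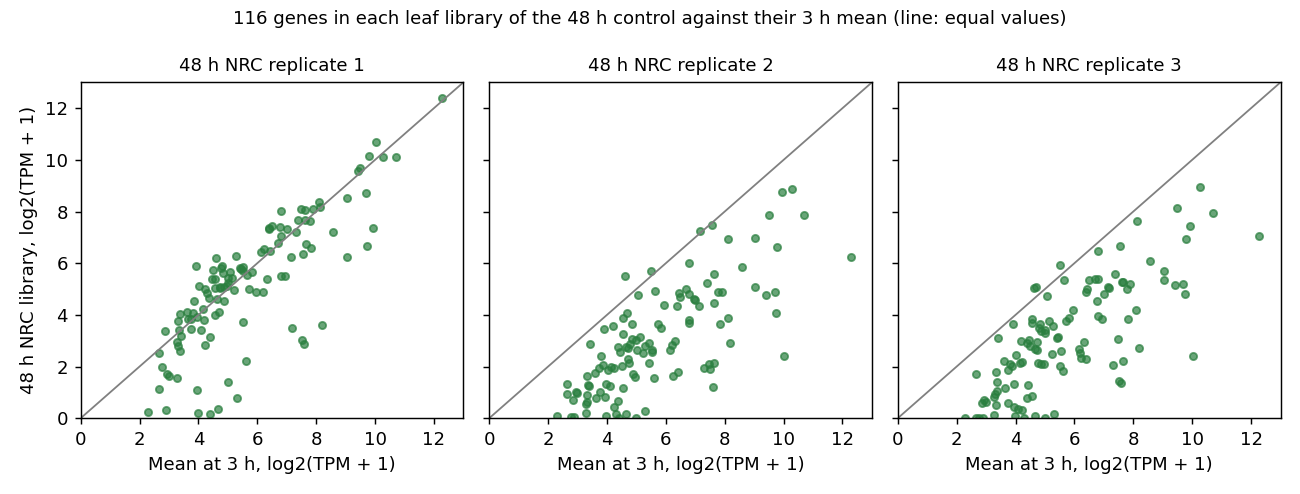
Each of the 116 genes in the 3 leaf libraries labelled 48 h NRC (vertical axis, log2(TPM + 1)) against its mean at 3 h (horizontal axis, log2(TPM + 1)); the line marks equal values. In replicate 1 the points gather along the line, and in replicates 2 and 3 nearly all lie below it.

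The NRC group sets the result of every leaf comparison with it. With limma and Benjamini-Hochberg adjustment over the leaf genes tested, a call needs a change of more than 1 on the log2 scale and an adjusted p under 0.05. At 0.5 h against NRC, 3 of the 116 genes were higher (background 1.29%) and 11 lower (background 2.35%). Without NRC replicate 1, 17 were higher (background 2.36%) and 9 lower (background 2.74%), and the median change of the 116 was 0.37 against -0.46 with it. At 24.5 h against NRC, 0 genes were higher (background 1.02%) and 12 lower (background 1.41%), with 26 of the 116 at an unadjusted p under 0.05 (22.4%, against 21.9% of all genes tested). Without NRC replicate 1, 10 were higher (background 2.33%) and 6 lower (background 1.40%). Leaving out NRC replicate 2 instead gave 24 calls at 0.5 h and 19 at 24.5 h, and leaving out any of the 24.5 h libraries gave 1, 4 and 3 calls at 24.5 h. These counts have no background beside them, so they show only how far the calls depend on single libraries.

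Against the 48 h NR group, where the median distances of the libraries lay close together, 13 genes were higher at 0.5 h (background 2.39%) and 7 lower (background 3.18%). At 24.5 h 4 were higher (background 2.43%) and 5 lower (background 2.28%). Between 48 h NR and NRC, limma called 0 of the 116 genes in either direction (background 0.0101% higher and 0% lower), with 38 at an unadjusted p under 0.05 (32.8%, against 12.9% of all genes tested) and 102 of the 116 below 0. Without NRC replicate 1 the count was also 0, with 11 at an unadjusted p under 0.05 (9.48%, against 6.59% of all genes tested) and the genes near evenly split, 53 above 0 and 63 below.

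Some genes were called at 0.5 h with and without NRC replicate 1. The 3 genes higher than NRC at 0.5 h, SORBI_3001G264700, SORBI_3003G218500 and SORBI_3008G077800, were also higher without NRC replicate 1, and 9 of the 11 lower ones were also lower. SORBI_3010G079700, named after its values were seen, had 7.80, 11.1 and 11.4 TPM at 0.5 h against 50.9, 50.7 and 59.4 TPM in the NRC group, with a log2 fold change by limma of -2.32 (SE 0.24, adjusted p = 5.0e-05). It stood at 31.6, 36.7 and 27.8 TPM at 24.5 h and at 32.5, 50.5 and 60.3 TPM at 48 h NR, close to its 3 h level of 35.8, 46.9 and 52.5 TPM. The late libraries of this gene thus lay near those of 3 h. SORBI_3002G287000 held 0.656, 0.65 and 1.07 TPM at 0.5 h against 40.5, 4.84 and 7.08 TPM in the NRC group, and its log2 fold change was -2.81 (adjusted p = 0.0018) with all libraries and -1.95 (adjusted p = 0.00048) without NRC replicate 1.

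Whether the genes also peak at 3 h in roots was asked next, since the choice used no difference between root groups. It did use the mean primary root level, in which the 3 h libraries count. Over the 18 primary root libraries of the other times, 111 of the 116 genes reached 1 TPM. The 5 others passed only through their 3 h libraries, and among them were SORBI_3003G007800, with means of 9.35 TPM at 3 h and 0.719 TPM at the other times, and SORBI_3007G210801. All 116 genes passed the filter in both root tissues. Their primary root mean had a median of 10.1 TPM, and their mean in primary root at 3 h had a median of 28.3% of the leaf 3 h mean, between 1.08% and 1175%. In lateral root the median was 23.5%. The tissues were tabulated separately, so levels set side by side across tissues were not tested. The upper end was SORBI_3002G093700, with 98.1, 80.6 and 45.9 TPM in primary root at 3 h and 15.6, 1.06 and 2.43 TPM in leaf.

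In primary root, limma called 28 of the 116 genes higher at 3 h than at 0 h (background 1.81%) and 1 lower (background 2.42%). The median log2 fold change of the 116 was 0.75, that of all genes tested 0.00, and 101 of the 116 were above 0. Against 24 h, 35 were higher (background 2.79%) and 1 lower (background 2.48%), with a median of 0.85 against 0.07 for all genes. Among the 111 genes that reached 1 TPM without the 3 h libraries, a count made after the data were seen, 25 were higher than at 0 h and 32 higher than at 24 h, with 1 lower in each comparison. Leaving out 3 h replicate 3 or 0 h replicate 3 lowered the calls against 0 h to 18 and 19 of the 116, with no background beside these counts. Without the library labelled 24.5 h replicate 3, which enters through the shared spread, 32 were higher than at 0 h (background 2.36%) and 1 lower (background 2.54%), and 38 higher than at 24 h (background 3.32%) and 1 lower (background 2.58%). The libraries did not overlap, with 3 h above, for 59 genes against 0 h (background 16.3%) and for 62 genes against 24 h (background 20.6%). Both counts were made over all 116 genes, with those that reached 1 TPM only through the 3 h libraries among them. The genes lower at 3 h were SORBI_3003G218500, with 8.34, 6.69 and 6.07 TPM against 20.3, 14.7 and 12.4 TPM at 0 h, and SORBI_3001G190300, with 5.75, 6.31 and 6.85 TPM against 14.3, 11.5 and 16.8 TPM at 24 h.

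In lateral root, 26 of the 116 genes were higher at 3 h than at 0 h (background 4.91%) and 0 lower (background 1.96%), with 52 at an unadjusted p under 0.05 (44.8%, against 30.5% of all genes tested). Without the library labelled 0 h replicate 1, 36 were higher (background 3.78%) and 1, SORBI_3006G255500, lower (background 3.76%). Against 24 h, 8 were higher (background 0.38%) and 0 lower (background 0.544%) in the fit of all libraries, with 42 at an unadjusted p under 0.05 (36.2%, against 11.7% of all genes tested). In the fit without 0 h replicate 1, 31 were higher (background 1.83%) and 1, SORBI_3001G190300, lower (background 3.18%). That library enters the comparison of 3 h with 24 h through the spread which the groups of a tissue share. Leaving out lateral root 3 h replicate 1 gave 16 calls against 0 h, and leaving out 0 h replicate 3 gave 40, with no background beside these counts.

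The calls of both roots overlapped in part. Against 24 h, and without lateral root 0 h replicate 1, the 24 genes called higher in both roots made up 68.6% of the 35 of primary root and 77.4% of the 31 of lateral root, where all genes tested gave 39.1% and 60.1%. With all libraries 7 were shared, 20.0% of 35 and 87.5% of 8, against 10.8% and 79.5% for all genes. Against 0 h and without that library, 17 genes were shared, 60.7% of 28 and 47.2% of 36, against 59.7% and 28.7% for all genes. With all libraries 10 were shared, 35.7% of 28 and 38.5% of 26, against 45.8% and 16.9% for all genes. The 35 and 28 of primary root include genes that met the primary root level of the choice only through their 3 h libraries. Without such genes they were 32 and 25. The shares were not counted again, so nothing is read from their distance to those of all genes. A difference between the roots in the change of 3 h against 24 h was tested as an interaction in limma, and the change against 0 h was not. It was called for 0 of the 116 genes (background 0%), with 5 of the 116 at an unadjusted p under 0.05 (4.31%, against 2.62% of all genes tested). None of the 22588 genes tested was called, so nothing about the 116 is read from their count of 0. Without lateral root 0 h replicate 1 the count was again 0 (background 0%), with 12 of the 116 at an unadjusted p under 0.05 (10.3%, against 5.77% of all genes tested) and a lowest adjusted p of 0.516.

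**Figure D4:**
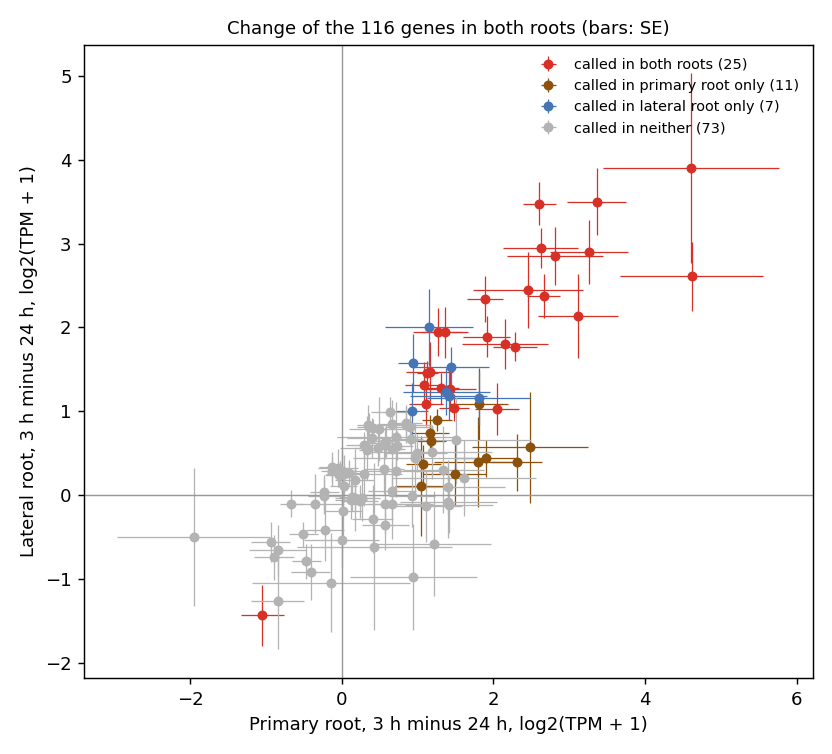
Change of the 116 genes at 3 h against 24 h in primary root (horizontal axis) and in lateral root without 0 h replicate 1 (vertical axis), as differences of log2(TPM + 1) with SE bars; colours mark the genes called in both roots, in 1 root or in neither. The 25 genes called in both lie up to 4.6 on the primary root axis, 1 of them is lower at 3 h in both, and 73 were called in neither.

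Leaf RNA in the root samples was measured beside these counts. The sum of the 5 leaf marker genes in primary root at 3 h was 278, 64.1 and 840 TPM, which is 1.05, 0.24 and 3.18% of the leaf 3 h mean, against 28.1 to 35.5 TPM at 0 h and 18.2 to 81.7 TPM at 24 h. In lateral root at 3 h it was 35.5 to 50.4 TPM, against 11.3 to 27.7 TPM at 24 h and 20.8 and 17.7 TPM in replicates 2 and 3 of 0 h. At most 1 of the 5 markers was at 0 in any of the 3 h root libraries. Of the 28 genes higher in primary root at 3 h than at 0 h, 15 stood at 10% or more of their leaf 3 h mean and 13 under it, and 10 of the 13 were highest in 3 h replicate 3, the library with the most leaf marker RNA. Of the 15, 10 were highest there too. SORBI_3003G007800 and SORBI_3003G068600, among the 13, met the primary root level of the choice only through their 3 h libraries. The part of leaf RNA in the changes of the genes under 10% was not tested.

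SORBI_3002G384400 is such a gene. Its 3 h levels in primary root were 32.1, 19.9 and 166 TPM, 1.46% of the leaf mean, against 0.884, 0.899 and 1.61 TPM at 0 h. The log2 fold change was 4.53 (SE 1.16, adjusted p = 0.018 from limma), and 3.64 (adjusted p = 0.093) without 3 h replicate 3. In lateral root its 3 h libraries were even, at 27.6, 33.0 and 30.4 TPM, against 0.744, 0.832 and 1.86 TPM at 24 h (log2 fold change 3.90, SE 1.13, adjusted p = 0.029 without 0 h replicate 1). PIFI behaved likewise in primary root, at 6.25, 3.56 and 26.2 TPM at 3 h against 0.749, 1.40 and 0.28 TPM at 24 h, with the highest value in the library richest in leaf markers. Its log2 fold change there was 2.46 (SE 0.73, adjusted p = 0.028), and 1.72 (adjusted p = 0.15) without 3 h replicate 3.

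Other genes reached levels in root that were close to those in leaf or above them. A group of 14 was called higher at 3 h than at 0 h and than at 24 h in both roots, when lateral root 0 h replicate 1 was left out (background 0.418%). Primary root alone gave 24 such genes (background 1.02%) and lateral root alone 24 (background 0.834%), or 8 with all libraries (background 0.229%). Of the 14, 9 stood at 10% or more of their leaf 3 h mean in both roots, and FKF1, APRR1 and SORBI_3003G191000 were among them. SORBI_3007G210801, also among the 9, met the primary root level of the choice only through its 3 h libraries. The count of 14 and that of 24 in primary root were not made again without such genes.

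SORBI_3003G191000 rose in primary root to 707, 899 and 885 TPM at 3 h, against 62.5, 81.2 and 90.0 TPM at 0 h. The log2 fold change was 3.41 (SE 0.39, adjusted p = 4.1e-05 from limma), and it was 3.36 (adjusted p = 7.2e-05) against 24 h, where the libraries held 132, 67.0 and 56.6 TPM. In lateral root it was higher still, at 2764, 2898 and 1465 TPM at 3 h against 338, 149 and 159 TPM at 24 h, 225% of the leaf 3 h mean. The root libraries of this gene did not overlap between the times. Before 3 h it was already at 709, 782 and 785 TPM in lateral root at 0.5 h, while the leaf libraries of 0.5 h held between 1.97 and 17.6 TPM. At 0 h lateral root held 128 and 389 TPM in replicates 2 and 3, and 6.10 TPM in the library labelled replicate 1.

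FKF1 and APRR1, of which APRR1 is named here after its values were seen, were called higher at 3 h than at 0 h and at 24 h in both roots. FKF1 held 21.6, 18.0 and 21.7 TPM in primary root at 3 h, against 3.02 to 4.62 TPM at 0 h (log2 fold change 2.24, SE 0.31, adjusted p = 0.00024). Against 24 h its change was 1.36 (adjusted p = 0.0079), and in lateral root, without 0 h replicate 1, it was 2.21 against 0 h (adjusted p = 0.00034) and 1.94 against 24 h (adjusted p = 0.00049). At 0.5 h FKF1 was still low in root, at 2.90, 3.72 and 5.78 TPM in primary root and 2.38, 5.44 and 6.25 TPM in lateral root. APRR1 was more abundant in root than in leaf: primary root at 3 h held 35.3, 17.6 and 53.3 TPM, 406% of the leaf mean, against 9.18, 6.66 and 9.53 TPM at 0 h (log2 fold change 1.83, SE 0.31, adjusted p = 0.0013). In lateral root its 3 h libraries held 22.8, 24.8 and 38.7 TPM against 5.72, 6.16 and 8.92 TPM at 24 h (log2 fold change 1.89, adjusted p = 6.9e-05 without 0 h replicate 1 and 0.031 with it).

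Unlike FKF1, APRR1 was already high in root at 0.5 h, with 21.8, 16.5 and 30.0 TPM in primary root and 17.4, 18.9 and 19.9 TPM in lateral root at 0.5 h, all above the 0 h libraries. In primary root these libraries overlapped those of 3 h. Groups of 0.5 h were not tested in root. GIGANTEA, which is outside the set, held 363, 376 and 367 TPM in primary root at 3 h against 149, 168 and 133 TPM at 24 h (log2 fold change 1.30, SE 0.10, adjusted p = 1.8e-06). The leaf markers reached at most 3.18% of their leaf level in primary root at 3 h. APRR1 stood at 406% and SORBI_3003G191000 at 78.7% of theirs. The part of leaf RNA in these levels was not tested.

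**Figure D5:**
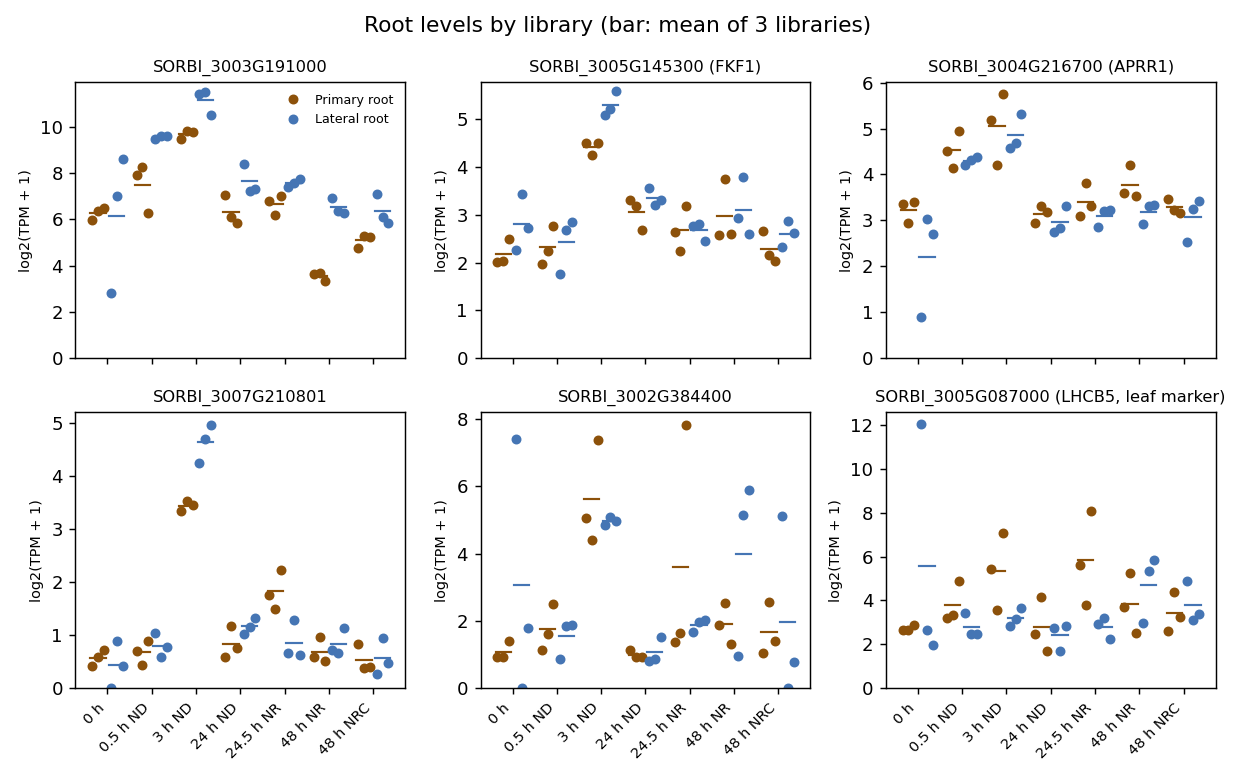
Levels of 5 of the genes and of LHCB5, a leaf marker, in primary root (brown) and lateral root (blue) libraries, as log2(TPM + 1) on the vertical axis, by group on the horizontal axis; points are libraries and bars are group means. FKF1, APRR1 and SORBI_3007G210801 have their highest group mean at 3 h in both roots, whereas SORBI_3002G384400 and LHCB5 share their highest primary root points, the third library of 3 h and of 24.5 h.

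SORBI_3007G210801, a gene without a description here, had the smallest p by limma among the 116 in lateral root at 3 h against 0 h. In primary root it held 9.13, 10.6 and 9.95 TPM at 3 h, against 0.342, 0.496 and 0.637 TPM at 0 h. These primary root values are a description only, because the 3 h libraries let the gene into the set. In lateral root it held 18.1, 25.1 and 30.1 TPM at 3 h, against 0.855 and 0.327 TPM in replicates 2 and 3 of 0 h (log2 fold change 3.99, SE 0.28, adjusted p = 1.7e-07). It was at or under 1.29 TPM in every leaf library of 0, 0.5 and 24 h, and in primary root it was among the 5 genes that passed the choice only through their 3 h libraries. NRC replicate 1 held 27.8 TPM of it in leaf, above the 3 h libraries at 20.7, 16.4 and 19.2 TPM.

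SORBI_3006G078500 combined a high level with an early rise in root. At 3 h primary root held 1218, 1130 and 1344 TPM, against 227, 211 and 226 TPM at 0 h (log2 fold change 2.47, SE 0.21, adjusted p = 2.8e-06). It had already reached 797, 1260 and 859 TPM at 0.5 h in primary root, whereas leaf at 0.5 h held 149.7, 376 and 301 TPM and reached 845, 647 and 691 TPM at 3 h. SORBI_3002G194600, named after its values were seen, held 392, 482 and 513 TPM in primary root at 3 h against 94.5, 242 and 172 TPM at 0 h (log2 fold change 1.53, adjusted p = 0.0054), and 147, 118 and 166 TPM in leaf at 3 h.

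The chaperone gene rose in both roots. The dnaJ C76 gene (SORBI_3006G265400) held 4.36, 4.40 and 4.57 TPM in primary root at 3 h, against 1.17, 1.67 and 1.67 TPM at 0 h (log2 fold change 1.12, SE 0.20, adjusted p = 0.0017). In lateral root its change against 24 h was 1.58 (adjusted p = 0.030 with all libraries). The hydroperoxide lyase SORBI_3004G007500 was low in root, at 3.20, 3.60 and 7.94 TPM in primary root at 3 h against 0.625, 0.496 and 1.39 TPM at 0 h. Its log2 fold change of 1.63 (adjusted p = 0.018) was 1.29 (adjusted p = 0.095) without 3 h replicate 3.

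The return of nitrate was read from 24.5 h against 24 h in root, a comparison in which the plants had been back on nitrate for 0.5 h. In primary root 13 of the 116 genes were higher (background 2.85%) and 0 lower (background 0.957%), with 42 at an unadjusted p under 0.05 (36.2%, against 24.6% of all genes tested). Without the library labelled 24.5 h replicate 3, 11 of 115 genes tested were higher (background 2.32%) and 1 lower, SORBI_3010G079700 (background 1.17%). The count ran between 5 and 29 as single libraries were left out: 29 without 24.5 h replicate 1, 5 without 24.5 h replicate 2, 6 without 24 h replicate 1 and 7 without 24 h replicate 3. In lateral root 7 were higher (background 1.24%) and 0 lower (background 0.173%), with 18 at an unadjusted p under 0.05 (15.5%, against 9.69% of all genes tested). Without 0 h replicate 1 there were 12 higher (background 2.68%) and 0 lower (background 0.995%). With all lateral root libraries but 24.5 h replicate 2 or 3, or 24 h replicate 1 or 3, the count was 4, 3, 4 and 4. The counts with single libraries of 24 h or 24.5 h left out have no background beside them in either root. Nothing is read from them about the 116.

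The genes called higher in both roots at 24.5 h, 6 in number (without lateral root 0 h replicate 1), included members of the uneven leaf set. The 6 made up 46.2% of the 13 of primary root and 50.0% of the 12 of lateral root. This overlap was not counted over all genes, so nothing is read from its size. SORBI_3005G186100, named after its values were seen, changed most. It held 253, 703 and 269 TPM in primary root at 24.5 h, against 18.4, 8.33 and 16.7 TPM at 24 h (log2 fold change 4.62, SE 0.63, adjusted p = 0.00045). In lateral root it held 192, 362 and 328 TPM at 24.5 h, against 5.04, 8.44 and 6.51 TPM at 24 h (log2 fold change 5.24, SE 0.35, adjusted p = 1.1e-07 without 0 h replicate 1).

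SORBI_3005G186100 was also high at 0.5 h after the removal of nitrate. Lateral root libraries held 111, 221 and 172 TPM at 0.5 h and 65.7, 53.4 and 43.7 TPM at 3 h, against 15.3 and 33.0 TPM in replicates 2 and 3 of 0 h. In leaf it appeared in single libraries, at 51.3 TPM in 0.5 h replicate 2 and 48.4 TPM in 3 h replicate 1, against 1.51 and 6.49 TPM in the other 3 h libraries. It therefore stood higher in lateral root after both changes of solution, and the handling of the roots at a change of solution cannot be told apart from the supply of nitrate, since no mock change is among the groups.

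SORBI_3001G112200 followed the same course. In primary root it held 38.1, 57.5 and 27.5 TPM at 0.5 h, 25.6, 54.3 and 15.1 TPM at 3 h, 0.126, 0.428 and 0 TPM at 24 h, and 3.32, 56.0 and 8.13 TPM at 24.5 h. Its change at 24.5 h was 3.48 (SE 0.94, adjusted p = 0.031), and 2.42 (adjusted p = 0.12) without 24.5 h replicate 2, so the call rests on that library. In lateral root the change was 2.73 (SE 0.41, adjusted p = 0.00034 without 0 h replicate 1), with at least 5.04 TPM in every 24.5 h library against at most 0.83 TPM at 24 h. At 0 h, primary root replicate 1 held 24.9 TPM and the others 0.508 and 0.158 TPM.

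No such second rise was called for FKF1 or APRR1. FKF1 held 5.19, 3.75 and 8.11 TPM in primary root at 24.5 h against 8.98, 8.06 and 5.40 TPM at 24 h, and APRR1 held 7.51, 13.1 and 8.90 TPM against 6.66, 8.87 and 8.09 TPM. Their libraries overlapped, and neither gene was called. SORBI_3003G191000 held 111, 71.4 and 129.8 TPM at 24.5 h against 132, 67.0 and 56.6 TPM at 24 h, also overlapping and not called.

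At 48 h, NR and NRC differed little in root. In primary root 1 of the 116 genes was higher in NR (background 0.285%) and 1 lower (background 0.203%). SORBI_3009G115300, named after its values were seen, held 5.35, 15.5 and 3.77 TPM in NR and 0.164, 0.814 and 0.867 TPM in NRC (log2 fold change 2.33, SE 0.50, adjusted p = 0.043). SORBI_3001G472000 held 21.5, 35.1 and 25.0 TPM in NR and 72.2, 67.8 and 70.2 TPM in NRC (log2 fold change -1.36, SE 0.25, adjusted p = 0.016). Without single libraries of these groups the count ran between 0 and 2, with no background beside it. In lateral root 0 of the 116 genes were called (background 0.125% higher and 0.173% lower), with 5 at an unadjusted p under 0.05 (4.31%, against 6.54% of all genes tested). Without 0 h replicate 1 the count was also 0 (background 1.04% higher and 0.704% lower), with 18 at an unadjusted p under 0.05 (15.5%, against 17.4% of all genes tested).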

How the data were processed

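RNA was measured in 63 libraries of 3 tissues. The authors used Trimmomatic for trimming, STAR for alignment to the BTx623 genome and StringTie for TPM, and the deposited TPM tables, with a column per library, were used as they are. TPM keep no depth, and no counts were used, so the authors' count test was replaced by limma. The test was limma 3.58.1 (R 4.3.3) on log2(TPM + 1), with a trended eBayes step and the 7 groups of each tissue fitted together, for genes that reached 1 TPM in 3 or more libraries. A fold change is on that scale, which understates the change of low genes. Calls need a Benjamini-Hochberg adjusted p under 0.05 over all genes tested and an absolute log2 fold change over 1. The p-values measure the spread between pooled samples. Tables were handled with pandas 2.3.3 and figures drawn with matplotlib 3.10.9. The fit was tested on simulated data.

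The members, lists and tests were chosen with earlier results of these data known. Genes were named by rule: the 12 largest rises, the 12 highest 3 h levels, up to 4 members of each list, up to 4 calls per root comparison and direction at 3 h, network nodes, and the 2 genes on each side of the threshold. The described genes APRR1, GIGANTEA and the hydroperoxide lyase and a few others were named after their values were seen. The alternatives were another pseudocount, other filters and scalings, a replicate block, eBayes without a trend, fits of the compared groups alone, calls by the adjusted p alone and each library left out. Gene names outside the study's tables were not used here.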

Additional observations from a re-analysis of the deposited data

How the results depend on the processing

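Of 189 counts and other summary values recomputed under the alternatives, 144 stayed within 1.5 times their value and 45 moved; of 1210 values of single genes 174 fell short of the call and 0 changed sign. A threshold of 1.5 gave 245 genes and one of 2.5 gave 52, and leaving out single libraries gave 107 to 132. The counts of calls that follow are given without background. They show only how far the counts among the 116 moved with the processing. With no filter, calls among the 116 numbered 9 (leaf 0.5 h against NRC), 4 (leaf 24.5 h against NRC), 7 (primary root 24.5 h) and 1 (primary root 48 h). With a mean of at least 5 TPM they numbered 6 (primary root 24.5 h), 1 (primary root 48 h) and 4 (lateral root 24.5 h). Quantile normalization gave 7 in primary root at 24.5 h and 13 in lateral root at 3 h against 24 h. Fits of only the compared groups gave 1 in leaf at 0.5 h and 1 at 24.5 h, 4 in primary root at 24.5 h, and 0, 31 and 13 in lateral root at 3 h against 0 h, at 3 h against 24 h and at 24.5 h. The fit that gave 0 held 6 libraries, the one labelled lateral root 0 h replicate 1 among them. Leaving that library out of the whole fit gave 32 and 12 in lateral root at 3 h against 24 h and at 24.5 h; the fits without leaf NRC replicate 1 and against 48 h NR were chosen after seeing the data, and gave 26 calls and 20 calls at 0.5 h.

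Leaving out single libraries gave 10 to 26 (leaf 0.5 h), 1 to 19 (leaf 24.5 h), 0 to 2 (leaf 48 h), 18 to 33 and 26 to 45 (primary root 3 h against 0 h and 24 h), 5 to 29 and 0 to 2 (primary root 24.5 h and 48 h), 16 to 40 and 6 to 32 (lateral root 3 h against 0 h and 24 h), 3 to 12 (lateral root 24.5 h) and 0 throughout (lateral root 48 h). Of 63 same-numbered pairs per tissue, 7 in leaf, 21 in primary root and 11 in lateral root had deviations correlated above 0.1. The median correlation of same-numbered pairs was -0.008 in leaf, -0.027 in primary root and -0.020 in lateral root. For differently numbered pairs it was 0.002, 0.008 and 0.010, so by the median samples of the same number were not closer. With the replicate block, calls numbered 27 and 37 in primary root at 3 h against 0 h and 24 h, and 1 at 48 h. The causes of these moves were not tested. Depth is unknown.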

Other observations

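The 23 genes with the same leaf pulse and under 1 TPM in primary root are outside the 116. SORBI_3001G138000, described as a chloroplast phosphomethylpyrimidine synthase, an enzyme of thiamine synthesis, was 1 of them and was named after its values were seen. It held 0.397, 0.521 and 0.561 TPM at 0 h, 40.3, 64.9 and 60.5 TPM at 3 h, and 0.269, 0.894 and 0.382 TPM at 24 h. Its NRC libraries held 51.7, 0.726 and 0.644 TPM, with replicate 1 again apart from the others.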
